A study of Mus musculus with 12 samples.

Results

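Genes of striated muscle were followed through mouse forestomach RNA, array by array, to ask on which arrays muscle like that of the neighbouring oesophagus was measured. The 10 members are Acta1, Ckm, Eno3, Myh1, Myh2, Myh4, Tnnt3, Mylpf, Atp2a1 and Pvalb, a list chosen with earlier results of these data known. Their probes were taken by gene name from the probe annotation of the arrays. The members have 18 probes of 60 bases, out of 41174 probes for 28193 genes (a probe without a gene name counts as its own gene). A probe was tested where the scanner flagged its forestomach signal as well above background on 3 or more of the 4 arrays in either group with scanner files. By that filter 13 of the 18 probes and 8 of the 10 members were tested, among 20720 genes. Pvalb and Myh4 were the 2 members that did not pass.

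Adult C57BL/6J mice, wild type, gave whole forestomach RNA for 12 two-colour arrays in 3 groups of 4. Controls drank supersaccharin with 0% alcohol, for a time that the labels do not state. The 4-week group drank 20% alcohol in supersaccharin for 4 weeks, and the 40-week group drank 15% alcohol for 40 weeks, with no supersaccharin named. Every array held forestomach RNA in Cy5 and a commercial reference pool, Agilent's Universal Mouse Reference RNA, in Cy3, without a dye swap. No label says that replicates came from separate animals, so the spread behind each p-value is that of samples and may be technical. Scanner signals of single spots were used for the 8 control and 4-week arrays, and the deposited log2 ratios of Cy5 over Cy3 for all 12.

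Striated muscle contracts through sarcomeres, in which myosin heavy chains pull on actin filaments under the control of troponin and calcium. Skeletal muscle fibres are sorted by the heavy chain they make: Myh2 in type IIa, Myh1 in type IIx and Myh4 in type IIb fibres, with Myh7 in slow fibres. The stomach wall is smooth muscle, whereas the muscle coat of the mouse oesophagus is largely striated and meets the stomach at the forestomach.

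The probe sequences below show which part of each transcript the signals come from. All are given 5′ to 3′ as the array's annotation lists them, with positions on mouse build mm9. Each of these 7 probes lies in coding sequence, and where the genomic span exceeds the length of the probe, the probe crosses an exon junction. Acta1 lies on the minus strand at chr8:126416197-126416256, and Ckm on the plus strand at chr7:20002222-20004829. Tnnt3 lies on the plus strand at chr7:149698254-149698479, and Mylpf on the plus strand at chr7:134356749-134356985. Atp2a1 lies on the minus strand at chr7:133591703-133591762. The coding probe of Myh2 lies on the plus strand at chr11:67006311-67006475, and that of Myh4 on the plus strand at chr11:67072804-67072863.
Acta1: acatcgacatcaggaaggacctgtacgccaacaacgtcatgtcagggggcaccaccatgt
Ckm: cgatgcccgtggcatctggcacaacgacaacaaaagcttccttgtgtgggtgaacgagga
Tnnt3: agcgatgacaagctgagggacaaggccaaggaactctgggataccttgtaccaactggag
Mylpf: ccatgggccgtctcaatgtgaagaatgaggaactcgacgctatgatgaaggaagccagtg
Atp2a1: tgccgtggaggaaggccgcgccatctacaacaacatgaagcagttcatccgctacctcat
Myh2: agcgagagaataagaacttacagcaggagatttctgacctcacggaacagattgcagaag
Myh4: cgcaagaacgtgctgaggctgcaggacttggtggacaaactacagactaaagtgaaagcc
The brightest probe of Myh2 and the one next to it lie at the 3′ end of the transcript and share 18 bases, at chr11:67010952-67010969 on the plus strand, so they are not independent measurements.
Myh2 shared bases: cgcctgtgtgattctatt
Probes of different members share no run longer than 14 bases over 141 pairs. Actins and myosin heavy chains are families of closely related genes, and binding of one member's RNA to another's probe was not tested.

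Some arrays carried transcripts of neighbouring organs. Of 14 tested genes of glandular stomach, 12 exceeded the mean of the group's other 3 arrays by more than 1 on the log2 scale on control replicate 4, and 12 did so on 4-week replicate 2. All 16 tested genes of pancreatic acinar cells did so on control replicate 3. Median Cy5 signal above local background was 107 to 142 on control arrays and 40.1 to 104 on 4-week arrays, lowest on 4-week replicate 4. Control and 4-week arrays each came from 1 slide of their own, so slide and group cannot be told apart. The tissue's own markers were measured throughout, with 18 of 18 smooth muscle genes and 14 of 15 genes of squamous epithelium well above background on all 8 arrays.

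Transcripts of striated muscle genes were measured on every one of the 8 arrays with scanner signals. The 8 tested members were well above background on all 8 in Cy5, while Pvalb was so on none and Myh4 on 2. That is 8 of 10 members on all 8 arrays, beside 62.7% of all 28193 genes, so detection alone is no result about the members. Signals in the following sentences are Cy5 signals minus the local background of the spot, in control replicates 1 to 4 and then 4-week replicates 1 to 4. They are not scaled between arrays, and levels of different probes cannot be set against each other.

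Acta1 encodes skeletal alpha-actin, the protein of the thin filament. Its signals were 7413, 6934, 14804 and 15664 on the control arrays and 6793, 6800, 8190 and 3621 on the 4-week arrays. The groups overlapped, and control replicates 3 and 4 were the highest of the 8. Ckm encodes muscle creatine kinase, which regenerates ATP from phosphocreatine. Its signals were 833.5, 2107, 1760 and 2055 in controls and 990.4, 1006, 886.8 and 403.7 after 4 weeks. Control replicate 1 lay within the range of the 4-week arrays, and the other 3 controls lay above it.

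Eno3 encodes beta-enolase, the glycolytic enolase of muscle. Its signals were 17432, 23722, 25125 and 27105 in controls against 5515, 7361, 3567 and 4682 after 4 weeks, so that every control lay above every 4-week array. The reference pool carried Eno3 too, at Cy3 signals of 22210 to 27770 on control arrays and 16343 to 20048 on 4-week arrays.

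Myh2, the heavy chain of type IIa fibres, gave 1456, 3132, 1687 and 1198 in controls and 344, 509.8, 625.9 and 467 after 4 weeks at its brightest probe. The neighbouring 3′ probe gave 2040, 3122, 1559 and 1282 against 328.1, 396, 426.1 and 420.5. At both probes all 4 controls lay above all 4 of the 4-week arrays. The coding probe printed above gave 107, 100.4, 70.34 and 75.4 in controls and 17.46, 11.3, 20.43 and 30.83 after 4 weeks, again without overlap. The last probe named Myh2, from a cDNA at chr11:66987588-66987647, gave 89.02 to 201.2 and 41.97 to 75.26.

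Myh1, the heavy chain of type IIx fibres, gave 117.8, 195, 196.5 and 166.6 in controls and 77.19, 67.64, 93.6 and 327.7 after 4 weeks. The last value, from 4-week replicate 4, was the highest of the 8, on the array with the lowest median signal. A second Myh1 probe gave 40.2 to 64.16 in controls and 15.31 to 18.2 after 4 weeks, with 17.14 on that array. As a deposited log2 ratio to the reference, that probe was at 0.32 on 4-week replicate 4, the highest of its group, against -0.42 to -0.33 on the other 3, and controls ran from -0.37 to 0.36. The third probe named Myh1 lies on the strand opposite to the other Myh1 probes and was above background on none of the 8 arrays.

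Myh4, the heavy chain of type IIb fibres, gave 12.22, 15.28, 18.56 and 12.91 in controls and 14.77, 10.16, 13.98 and 18.48 after 4 weeks. Only control replicate 3 and 4-week replicate 4 were well above background, and at the second Myh4 probe only control replicate 3 was. Pvalb, the calcium buffer parvalbumin of fast fibres, gave 0.985 to 12.03 and was not well above background on any of the 8 arrays.

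Tnnt3, fast skeletal troponin T, gave 203.4, 717.7, 281.3 and 141.5 in controls and 118.8, 247.4, 248.8 and 117.7 after 4 weeks. Control replicate 2 stood highest, as it did at the second Tnnt3 probe, with 662.7 against 59.8 to 270.3 on the other 7 arrays. Mylpf, the regulatory light chain of fast myosin, gave 218.1, 263.1, 424.2 and 394.6 against 190.1, 309.8, 165.8 and 286.5, and the groups overlapped. Atp2a1, the calcium pump SERCA1 of the fast-fibre sarcoplasmic reticulum, gave 124, 192.2, 235.4 and 309.2 against 141.8, 128.7, 161.7 and 122.8. Control replicate 1 fell among the 4-week values there. The plot of signals by array shows the 10 members together.

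**Figure D1:**
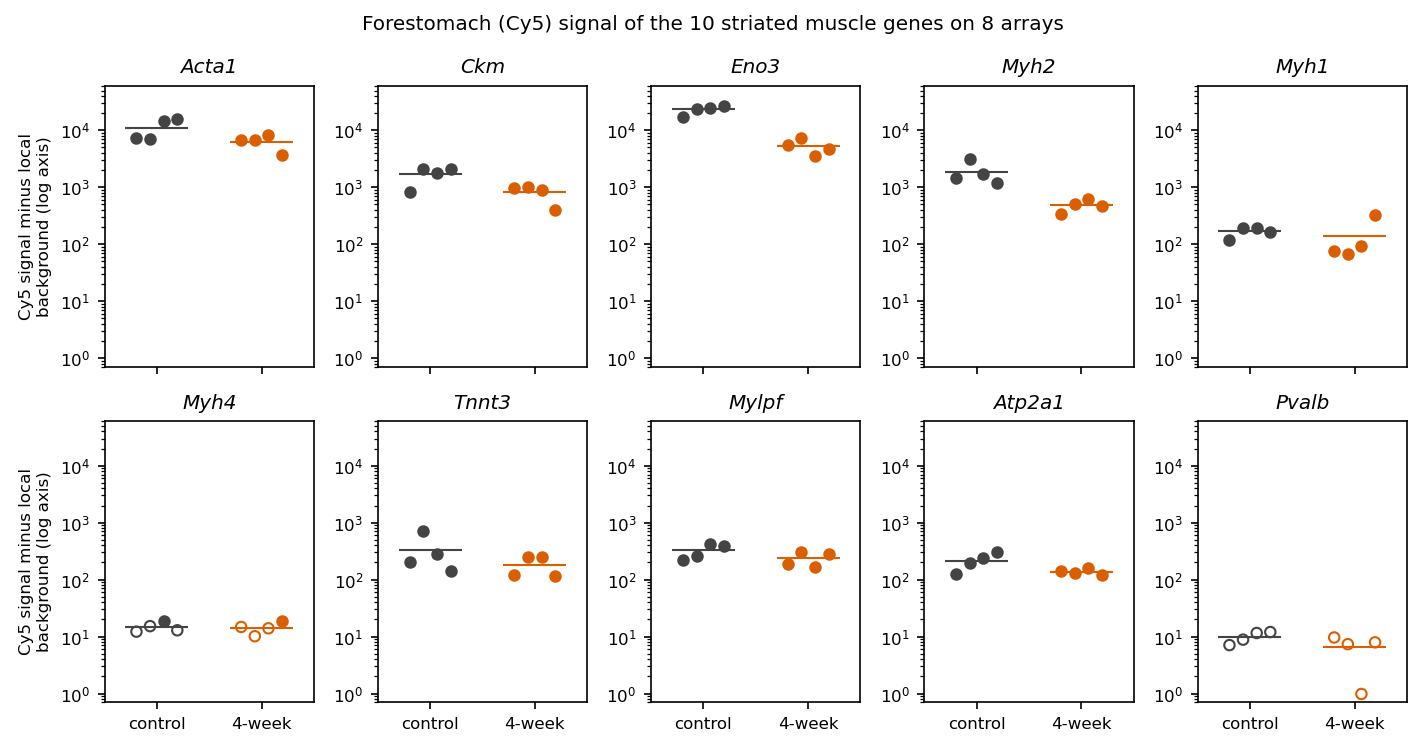
Cy5 signal minus local background (log axis) of 1 probe of each of the 10 members on the 4 control arrays and the 4 arrays of the 4-week group. Points are arrays in replicate order, filled where well above background and open where not, and lines are means. Eno3 and Myh2 are lower on all 4 of the 4-week arrays, and Pvalb is open on all 8.

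Most fast and slow striated muscle genes outside the members were measured too, at shares close to that of all genes. The 3 further lists hold genes known from fast and all striated muscle, from slow and developing muscle, and from muscle progenitors and the neuromuscular junction. Of 40 further fast and pan-striated genes, 27 were well above background on all 8 arrays, between 28 and 34 were so on each array, and Cacng1, Mybpc1, Ckmt2 and Art1 were so on none. Of 12 slow and developmental genes on the array, 8 were measured on all 8 arrays and Myh13 on none. Of 13 regulators and junction genes, 6 were measured on all 8 arrays and Myf5, a factor of muscle precursors, on none. Casq2 is in both the slow muscle list and the smooth muscle list.

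The members stood highest on 4-week replicate 4, and there in some members and not in all. An array was compared with the mean of the other 3 arrays of its group, member by member, in log2 ratios of Cy5 over Cy3 after background correction and normalisation. The mean over the 8 tested members differed from those other arrays by -0.38, 0.22, 0.14 and 0.03 on control replicates 1 to 4, and by -0.27, -0.32, 0.06 and 0.53 on 4-week replicates 1 to 4. Between 0 and 2 of the 8 members exceeded the other 3 arrays by more than 1 on any of these 8 arrays. The 2 were Myh1 and Mylpf, by 2.15 and 1.00, on 4-week replicate 4, and the 1 on control replicate 2 was Tnnt3, by 1.36. For all 20720 genes the share over 1 ran from 0.203% to 4.19% per array and was 0.44% on 4-week replicate 4. In Cy5 alone, 4 of the 8 members exceeded 1 on that array, namely Myh1 by 2.42, Mylpf by 1.33, Myh2 by 1.04 and Eno3 by 1.02, beside 1.13% of all genes, while Acta1 was at 0.18 and Ckm at -0.05. In the deposited ratios of the 40-week arrays the only such member was again Tnnt3, by 1.44 on 40-week replicate 4.

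The arrays with transcripts of other organs did not have more of the members. On control replicate 4 and 4-week replicate 2, where 85.7% of the glandular stomach genes exceeded 1, none of the 8 members did, nor did any on control replicate 3 with its acinar transcripts. The same held for these 3 arrays in Cy5 alone. Of 8 tested genes of heart muscle, Tnni3 was over 1 on both arrays with glandular transcripts, and Tnnt2 was so on control replicate 4. The Cy5 signals of Tnni3 were 4849 on control replicate 4 and 7530 on 4-week replicate 2, against 12.6 to 97.9 on the other 6 arrays. Myh7, the slow heavy chain, reached 825 on 4-week replicate 2 against 25.8 to 124 on the other 7. The part of the glandular transcripts in these values was not tested.

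**Figure D2:**
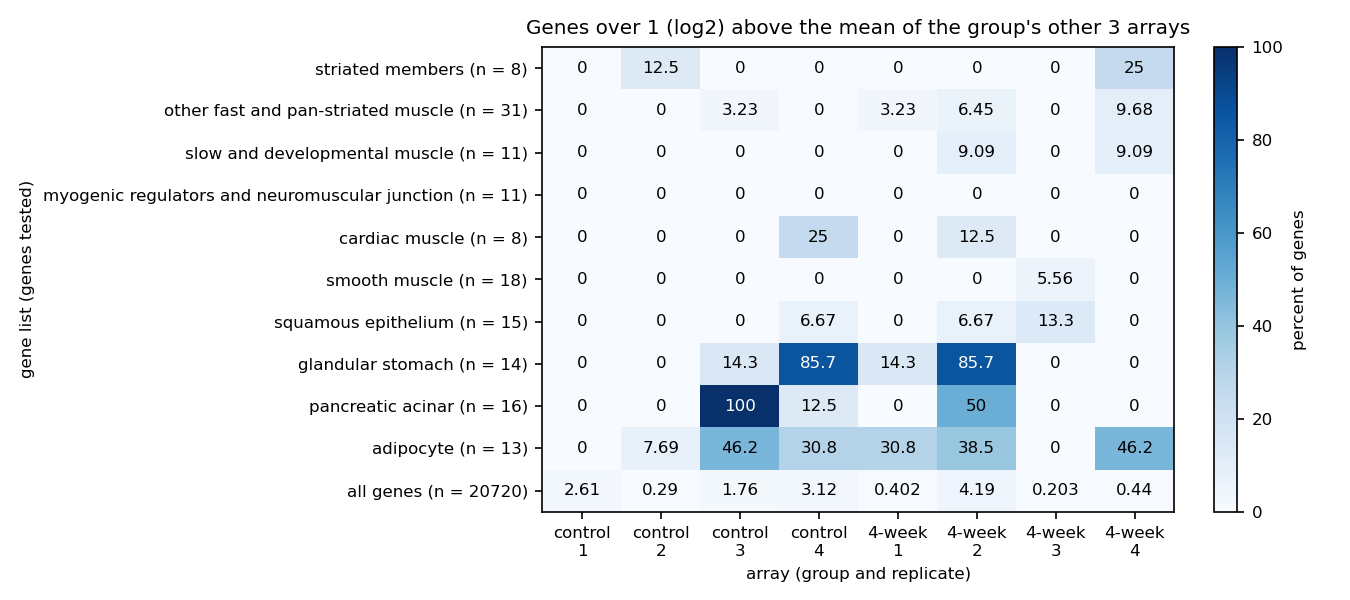
Percent of the tested genes of each list that exceeded the mean of their group's other 3 arrays by more than 1 on the log2 scale, in log2 ratios of 8 arrays (columns) and 10 gene lists with all genes below them (rows). The striated members reach at most 25%, on 4-week replicate 4, whereas the glandular stomach list reaches 85.7% on 2 arrays and the pancreatic acinar list 100% on control replicate 3.

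A few striated muscle genes set control replicate 3 and 4-week replicate 4 apart, a pattern picked out after the values were seen and so given without a test. Tnnc2, fast troponin C, had Cy5 signals of 127, 263, 727 and 340 in controls and 120, 165, 168 and 775 after 4 weeks. Mb, which encodes myoglobin, the oxygen store of oxidative fibres and heart, gave 26.7, 29.3, 87.7 and 41.2 in controls and 24, 15.7, 13 and 122 after 4 weeks. Both genes were highest on those 2 arrays, which were also the only ones with Myh4 well above background. Myl1, the essential light chain of fast myosin, gave 479 and 383 there but also 438 on control replicate 4 and 481 on 4-week replicate 2, with 51.9 to 264 on the other 4. The second Atp2a1 probe did not pass the filter and was well above background on 4 of the 8 arrays. Its Cy5 signals were 15.14 to 32.06 in controls and 9.952 to 29.67 after 4 weeks. Its deposited log2 ratios were -0.99 to -0.24 at 40 weeks. Among the 8 arrays with scanner signals the ratio was 0.29 on 4-week replicate 4 against -2.35 to -1.41 on the other 7. Of the 31 further fast and pan-striated genes tested, 3 exceeded 1 on that array, namely Tnnc2, Myl1 and Mb, and 1 did on control replicate 3, Tnnc2. Myh8, of the slow and developmental list, had a scanner log2 ratio of 3.07 on 4-week replicate 4, against 1.74 to 1.88 on the rest of its group. On control replicate 3 it did not stand apart, at 3.23 against 2.36 to 3.65 on the other controls. Of 13 adipocyte genes, 6 were over 1 on each of these 2 arrays, against 0 to 5 on the other 6 arrays. Their mean deposited log2 ratio was 3.36, 4.87, 5.09 and 4.87 in controls and 4.03, 3.99, 2.00 and 4.09 after 4 weeks. It was lowest on control replicate 1 and 4-week replicate 3, while control replicate 3 and 4-week replicate 4 lay near others of their group. The part of adipocyte genes in the pattern was not tested.

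The members did not rise and fall together from array to array. With each gene centred within its group, Pearson's r of a member with the mean of the other 7 over the 8 arrays ran from -0.11 for Ckm to 0.72 for Myh1. Pairs ranged from -0.77 for Acta1 with Tnnt3 to 0.79 for Myh2 with Tnnt3 and for Myh1 with Mylpf. Tested probes of 1 gene ranged from -0.31 to 0.91, and from 0.55 to 0.91 without the cDNA probe named Myh2. Their r was 0.91 for both Tnnt3 probes and 0.55 for both Myh1 probes. The 3′ probes of Myh2, which share bases, gave 0.84 with each other and 0.65 and 0.88 with the coding probe, while the cDNA probe of Myh2 gave -0.31 to 0.26 with the other 3. These are descriptions over 8 arrays that share a reference pool and a scaling. The genes outside the members most like their mean were Pacsin3, Cdc42ep3, Tkt, Cipc, Il1rn, Plxna2, Ddx46 and 3 unnamed probes, with r of 0.96 to 0.98. These were picked as the highest r among the tested genes over only 8 arrays, so the size of r is no evidence of a link. Among the nearest 100 genes there was 0 from any of the muscle, epithelial, gland or fat lists. Each of these lists holds only 8 to 31 tested genes among 20720, so this count is no result about the members.

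After 4 weeks of 20% alcohol, Eno3 was the 1 member of 8 that passed the test, and it fell. The comparison addresses alcohol drinking, but each group lay on 1 slide of its own, so slide and alcohol cannot be told apart. The log2 ratio of Eno3 to the reference was 0.55, 0.47, 0.42 and 0.72 in controls and -0.45, -0.75, -1.08 and -0.08 after 4 weeks. The groups did not overlap, and the ratio fell by 1.13 on the log2 scale (SE 0.20, limma, adjusted p = 0.0437). Of all 20720 genes 1.07% passed, with 0.806% lower and 0.265% higher, so 1 of 8 rests on few members. In Cy5 alone the change was -1.41 (adjusted p = 0.0639, limma) and in Cy3 alone, the reference, -0.15. The adjusted p of Eno3 in limma ran from 0.00716 to 0.236 over the alternatives. The value of 0.236 was that of Cy3 alone, which measures the reference and not the forestomach. When any 1 of the 8 arrays was left out, the adjusted p was over 0.05 (0.0767 to 0.12). In whole tissue, fewer cells of a type and less RNA per cell cannot be told apart.

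Myh2 missed the threshold at its brightest probe. Its log2 ratios were 4.40, 5.34, 4.89 and 4.47 in controls and 3.06, 3.27, 3.90 and 3.85 after 4 weeks, without overlap, a change of -1.26 (SE 0.26, limma, adjusted p = 0.0621). With every probe tested on its own, the neighbouring 3′ probe passed at -1.43 (SE 0.23, limma, adjusted p = 0.042). The coding probe changed by -0.71 (adjusted p = 0.0721) and the cDNA probe by -0.28 (adjusted p = 0.452). Genes with high control ratios were lower at 4 weeks in general. Of 725 genes with a mean control ratio of 3 to 5, where this Myh2 probe lies, 87.9% were lower, with a median change of -0.41. Of 329 above 5, 98.5% were lower, with a median of -0.91, whereas the 14275 between -1 and 1, where Eno3 lies, had a median of -0.01. After scaling to the same spread Myh2 was at -0.81 (limma, adjusted p = 0.406) and Eno3 at -1.11 (limma, adjusted p = 0.127). Groups without overlap, which Eno3 and Myh2 showed among the 8 members, were found for 11.8% of 20656 genes with a value on all 8 arrays.

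The other 6 members did not pass. Ckm had a log2 change of -0.57 (SE 0.30) and Acta1 of -0.26 (SE 0.19). Values above 0 were 0.41 (SE 0.21) for Atp2a1, 0.30 (SE 0.27) for Mylpf, 0.23 (SE 0.37) for Tnnt3 and 0.04 (SE 0.49) for Myh1. Without 4-week replicate 4 the value of Myh1 was -0.49, and no direction is settled for it. In each of these 6 the control and 4-week ratios overlapped. The median over the 8 members was -0.11, beside -0.02 over all genes, and 4 of the 8 lay on either side of 0.

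Between 0 and 4 genes of each other muscle list passed at 4 weeks, beside 1.07% of all 20720 genes. By direction, 0.806% of all genes passed as lower and 0.265% as higher. For the counts at an unadjusted p, no share of all genes is given, so they are no result about the lists. Of 31 further fast and pan-striated genes 1 fell, Mybpc2, a myosin-binding protein of fast muscle, by 0.72 on the log2 scale (SE 0.12, limma, adjusted p = 0.0395), and the list's median was -0.12. Of 11 slow and developmental genes 0 passed in limma, with 4 at an unadjusted p under 0.05, and values were 0.78 (SE 0.61) for Myh7, -0.08 (SE 0.10) for Myl2 and -0.10 (SE 0.15) for Myl3. Of 11 regulators and junction genes 0 passed in limma, with 2 at an unadjusted p under 0.05, and values were -0.18 (SE 0.11) for Pax7, 0.14 (SE 0.09) for Myod1 and 0.18 (SE 0.11) for Myog. Of 8 cardiac genes 1 fell, Myl7, an atrial light chain, by 1.41 on the log2 scale (SE 0.20, limma, adjusted p = 0.0349). Of 18 smooth muscle genes 4 were lower (Cnn1, Des, Myh11 and Myocd), with a mean deposited control ratio of 4.56 to 5.04 per array and a median change of -0.71, or -0.17 in Cy5 alone. After scaling to the same spread Mybpc2 was at -0.59, Myl7 at -0.80 and the smooth muscle median at -0.35, and none of the genes in these lists passed, nor did any of all 20720 genes. The summed Cy5 signal of these 18 genes, not scaled between arrays, was 1732969 to 2589089 on control and 792709 to 1576323 on 4-week arrays. The part of smooth muscle or of the lower overall Cy5 signal in the values of Eno3 and Myh2 was not tested.

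Ratios to the reference were compressed at 40 weeks, which bears on every value that follows. The standard deviation of the deposited log2 ratios over all probes was 1.48 to 1.73 on the 8 control and 4-week arrays and 1.02 to 1.08 on the 40-week arrays. Of 545 genes with a mean control ratio above 5, 99.8% were lower at 40 weeks, with a median change of -2.39. The median change was -1.32 for the 952 genes between 3 and 5, -0.63 for the 3386 between 1 and 3, and -0.05 for the 12394 between -1 and 1. Processing and group cannot be told apart here, and the 40-week mice also differed in duration, dose and drinking solution. Each change is therefore given as deposited and after scaling every array to the same spread of log2 ratios.

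After 40 weeks of 15% alcohol, 4 of the 8 members were lower than in controls and 0 higher. By the same test 42.5% of all genes passed, with 24.0% of all genes lower and 18.6% higher. The 4 were also those whose groups did not overlap, beside 42.3% of all genes. With the same spread 2 of the 8 were lower, Myh2 and Eno3, and 0 higher, beside 18.7% and 19.6% of all genes. Deposited log2 ratios of Myh2 were 5.83, 6.19, 6.06 and 5.92 in controls, 4.31, 4.29, 5.30 and 5.11 at 4 weeks and 2.81, 3.20, 3.28 and 3.28 at 40 weeks. The 3 groups lay apart in that order, and the 40-week ratio fell by 2.86 on the log2 scale (SE 0.23, limma, adjusted p = 3.13e-06). After scaling to the same spread the change was -1.04, and after quantile normalisation -0.85, and it passed in both.

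The probes of Myh2 disagreed at 40 weeks. The neighbouring 3′ probe changed by -2.69 (SE 0.24) and the cDNA probe by -1.22 (SE 0.19), both passing the test. The coding probe, which crosses an exon junction, changed by 0.02 (SE 0.39, limma, adjusted p = 0.968). Its deposited ratios were 2.88, 2.90, 2.43 and 1.92 in controls, 0.98, 0.59, 2.09 and 1.67 at 4 weeks and 2.25, 1.73, 2.98 and 3.25 at 40 weeks. The coding probe was dim. Of the 8 arrays with scanner signals it was well above background on 7 in Cy5 and on only 3 in Cy3, the reference. Its control and 40-week values overlapped, so the probes do not settle a fall of Myh2 at 40 weeks. Of the 3 that fell, the 3′ pair shares bases, and the cDNA probe lies 5′ of the other Myh2 probes, outside the span they cover. Whether it measures Myh2 was not tested.

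Ckm had ratios of 4.40, 5.59, 5.02 and 4.88 in controls, 4.70, 4.23, 4.50 and 3.98 at 4 weeks, and 3.14, 3.41, 3.32 and 3.38 at 40 weeks. All 40-week values lay below all others, a fall of 1.66 on the log2 scale from control (SE 0.23, limma, adjusted p = 0.000163). After scaling to the same spread the difference was 0.08 (adjusted p = 0.849), so its direction turned and the call was lost. Acta1 had 2.73, 2.50, 2.98 and 3.22, then 2.80, 2.20, 2.73 and 2.70, and at 40 weeks 1.97, 1.98, 2.11 and 2.15. It too was lowest on the 40-week arrays and fell by 0.80 on the log2 scale (SE 0.18, limma, adjusted p = 0.00344). With the same spread the difference was 0.25 (adjusted p = 0.257), again turned.

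Eno3 lay in the range of ratios where the median gene barely moved. Its deposited ratios were 0.57, 0.50, 0.43 and 0.76 in controls, -0.43, -0.74, -1.07 and -0.08 at 4 weeks, and 0.25, -0.11, -0.06 and -0.10 at 40 weeks. All 4 controls lay above all arrays of either alcohol group. The 40-week ratio fell by 0.57 on the log2 scale (SE 0.19, limma, adjusted p = 0.0301), and the change was -0.51 with the same spread and -0.52 after quantile normalisation, passing in both. With 1 array left out, the adjusted p of Eno3 ran from 0.0291 to 0.0743 and missed the threshold without control replicate 4 or 40-week replicate 2, 3 or 4.

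The remaining 4 members did not pass against controls at 40 weeks. Tnnt3 differed by 1.00 (SE 0.49, limma, adjusted p = 0.119), with ratios of -0.16, 0.74, 0.03 and 1.65 at 40 weeks against -0.53, 0.78, -0.59 and -1.38 in controls. The groups overlapped, and 40-week replicate 4 was the highest of the 12 arrays. Without control replicate 2 the difference was 1.40 and passed (limma, adjusted p = 0.0301). The second Tnnt3 probe, over all arrays, differed by only 0.22 (SE 0.46, limma, adjusted p = 0.72), with ratios of -0.83 to 0.61 at 40 weeks. Atp2a1 differed by -0.42 (SE 0.25), Mylpf by 0.12 (SE 0.27) and Myh1 by -0.18 (SE 0.55). With the same spread, Mylpf became -0.18 and Myh1 0.63, so neither has a settled direction.

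**Figure D3:**
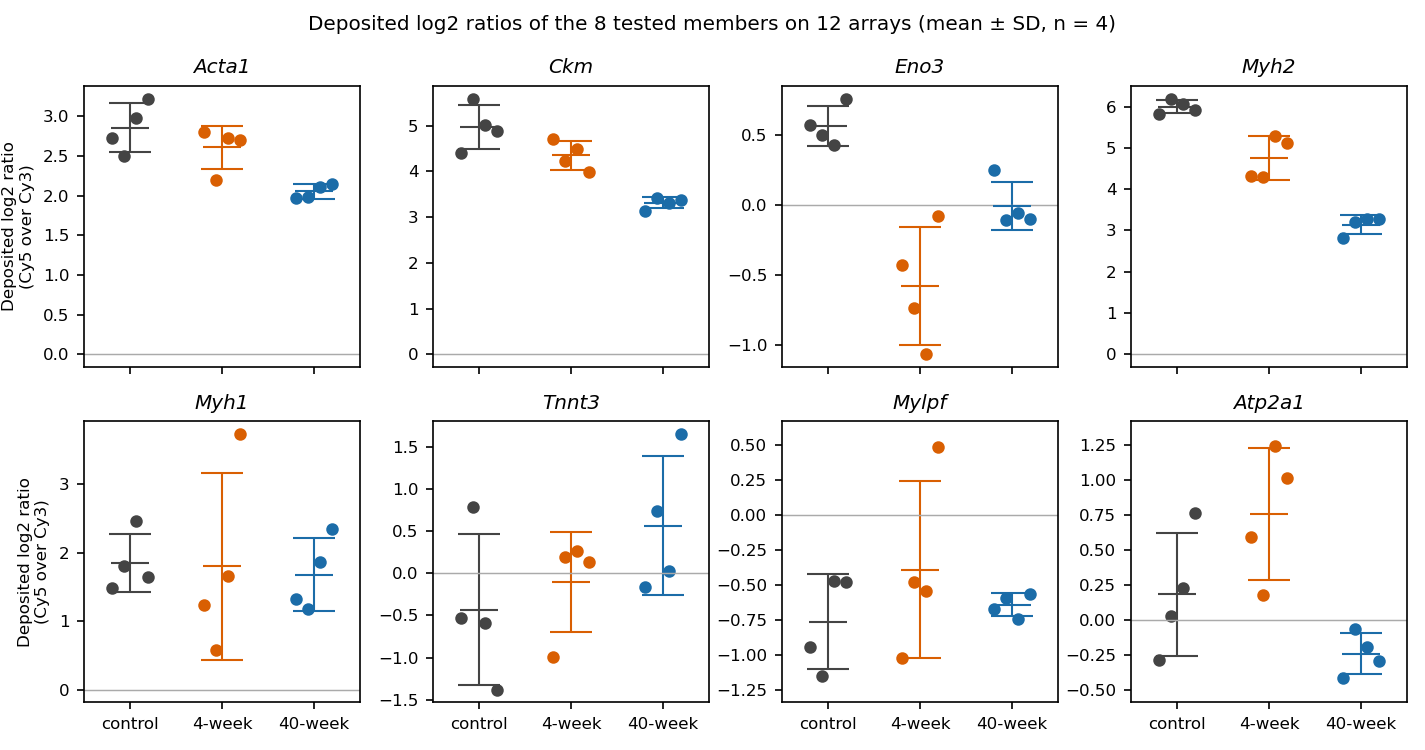
Deposited log2 ratio of forestomach (Cy5) over reference (Cy3) at the brightest probe of the 8 tested members, for the 4 arrays of each group (control, 4-week and 40-week). Points are arrays, and bars are the mean and SD of each group. Myh2 runs from 5.83 to 6.19 in controls and from 2.81 to 3.28 at 40 weeks, while Eno3 is lowest at 4 weeks.

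Against the 4-week group, 4 of the 8 members were lower at 40 weeks and 1 was higher, beside 41.5% of all genes passing, with 23.2% of all genes lower and 18.3% higher. Myh2 fell by 1.61 on the log2 scale (SE 0.23), Ckm by 1.04 (SE 0.23), Atp2a1 by 0.99 (SE 0.25) and Acta1 by 0.55 (SE 0.18). These 4 did not overlap between the groups, as was true of 45.3% of all genes. Eno3 was higher by 0.57 (SE 0.19, limma, adjusted p = 0.0309), with 2 of the 40-week arrays above every 4-week array and 2 among them. With the same spread, Atp2a1 (-0.96) and Eno3 (0.48) kept their direction and passed. Acta1 became 0.49 (adjusted p = 0.0362, limma), a call in the other direction, and Ckm (0.67) and Myh2 (0.11) turned without passing. That makes 1 of the 8 lower and 2 higher, beside 18.9% and 21.9% of all genes. With 1 array left out, Acta1 missed the threshold without 4-week replicate 1, 3 or 4 or 40-week replicate 1 or 2 (adjusted p up to 0.0645). Eno3 missed it without 4-week replicate 2 or 3 or 40-week replicate 1 or 3 (adjusted p up to 0.0909). Both comparisons use the 40-week arrays, and the 2 comparisons with controls share the controls, so they are not independent.

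**Figure D4:**
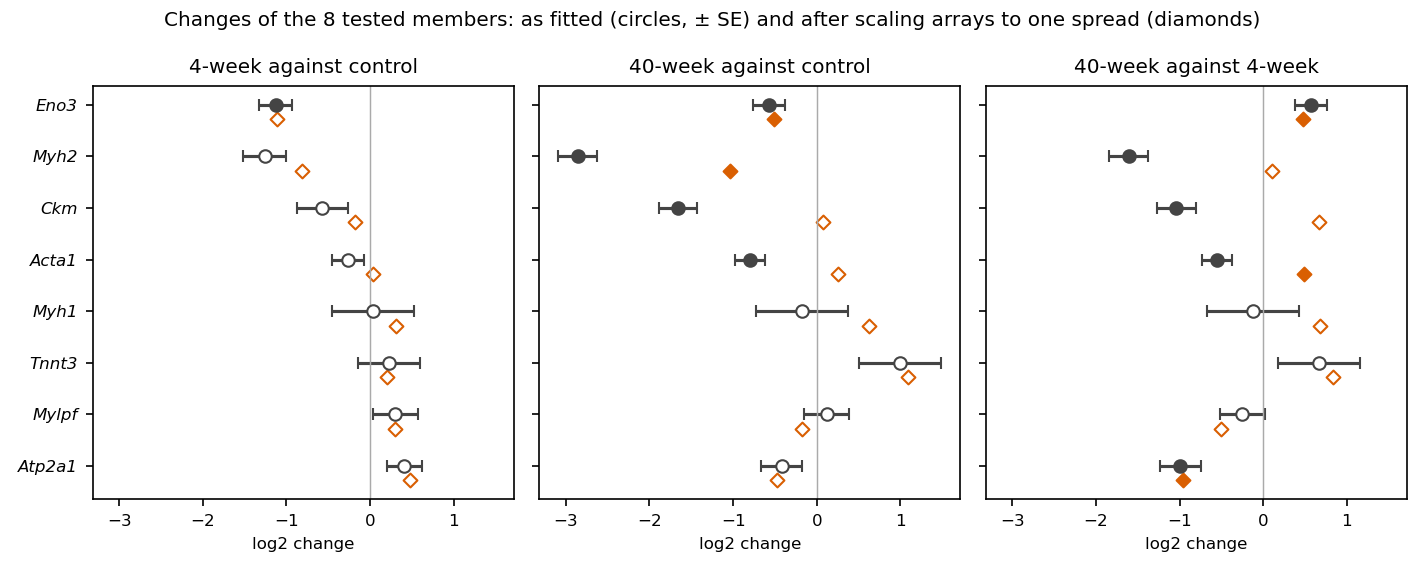
Log2 change of the 8 tested members in 3 comparisons. Circles are the fitted changes with their standard errors and diamonds the changes after scaling all arrays to the same spread, filled where the adjusted p was under 0.05. At 40 weeks the changes of Ckm and Acta1 cross 0 after scaling, while Eno3 stays near -0.5 and Myh2 stays below 0 against controls.

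The other muscle lists moved both ways at 40 weeks. Of 31 further fast and pan-striated genes 13 fell and 6 rose against controls, with a median of -0.54 that became 0.07 with the same spread. Over all genes 24.0% fell and 18.6% rose, and 6 of 31 is near the latter share. The 4 with the smallest p were Apobec2, a deaminase-family protein of striated muscle (-1.48, SE 0.14), and Stac3 (1.62, SE 0.17), Actn3 (1.10, SE 0.13) and Cox6a2 (1.07, SE 0.18). With the same spread Stac3 kept its direction and passed (1.40). Apobec2 became 0.54 (limma, adjusted p = 0.0499), a call in the other direction, while Actn3 was at 0.10 and Cox6a2 at -0.51 without passing. By that scaling 5 of the 31 fell and 5 rose, beside 18.7% and 19.6% of all genes. Stac3 serves excitation-contraction coupling, Actn3 is the alpha-actinin of fast Z-discs, and Cox6a2 is a subunit of cytochrome oxidase in muscle and heart. Of 11 slow and developmental genes 3 fell and 1 rose, namely Casq2 (-1.54), Actc1 (-1.73), Myl3 (-0.54) and Tnnc1 (0.73). Of these, Myl3 alone passed with the same spread (-0.48), and the others were at -0.17, -0.41 and 0.02. Counted over the whole list, 3 of the 11 fell and 0 rose by that scaling. Of 11 regulators and junction genes, Myod1, a master factor of myogenesis, rose by 1.65 (SE 0.10) and Chrna1, a subunit of the muscle acetylcholine receptor, by 0.95 (SE 0.14), while Chrnd fell by 1.11 on the log2 scale (SE 0.24). Myod1 (1.96) and Chrnd (-1.23) kept their direction and passed with the same spread, whereas Chrna1 became -0.38 and did not pass. Myod1 was dim, with Cy5 signals of 14.7 to 48.9 on control and 4-week arrays. Myf5, well above background on none of those arrays, had deposited ratios of -0.37 to 0.30 there. At 40 weeks its ratios were -2.58 to -2.34, so a dim probe could differ there with little spread. Whether this bears on the rise of Myod1 was not tested. The 3133 genes with a control ratio between -3 and -1, among them Stac3 at -2.11 to -1.19, had a median change of 0.67. Smooth muscle fell in 17 of 18 genes with a median of -1.94, or -0.26 with the same spread. By that scaling 5 of the 18 fell and 2 rose. The mean deposited log2 ratio of smooth muscle was 4.56 to 5.04 in controls, 3.63 to 4.22 at 4 weeks and 2.83 to 3.05 at 40 weeks. The part of smooth muscle in the values of the members was not tested.

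Between 40 and 4 weeks the further fast and pan-striated genes split 5 lower to 6 higher of 31, with a median of -0.20, beside 23.2% lower and 18.3% higher of all genes. With the same spread the split was 4 lower to 9 higher, with a median of -0.11, beside 18.9% and 21.9% of all genes. The smallest p values belonged to Stac3 (1.74, SE 0.17), Cox6a2 (0.95, SE 0.18), Pygm (-1.31, SE 0.25) and Apobec2 (-0.57, SE 0.14). Pygm is the glycogen phosphorylase of muscle. With the same spread Stac3 kept its direction and passed, Cox6a2 (-0.66) and Apobec2 (1.37) passed in the other direction, and Pygm was at -0.29 without passing. Among slow and developmental genes 3 fell (Casq2, Actc1 and Tnni1) and 2 rose (Tnnc1 and Tnnt1), and among regulators and junction genes Chrne fell while Myod1 and Chrna1 rose. Of these 8, Myod1 (1.71) and Tnni1 (-1.47) kept their direction and passed with the same spread, and Chrna1 (-0.57) passed in the other direction. The dim signal of Myod1 limits its value here too. Casq2 (0.43), Actc1 (0.00), Tnnc1 (0.07), Tnnt1 (-0.21) and Chrne (-0.05) did not pass. By that scaling 1 of the 11 slow and developmental genes fell and 2 rose. Of the 11 regulators and junction genes 4 fell and 1 rose.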

How the data were processed

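The 8 scanner files hold, as deposited and per the file headers, linear intensity (spot mean, median local background, and a processed signal), log10 ratios of the processed signals, and other columns of flags. Headers name Agilent Feature Extraction 10.7.3.1, whereas the submitters' processing notes name 9.1. The deposited table holds log2 ratios. Its scale was not stated, and 99.76% to 99.891% of probes per array lay within 0.05 of the scanner log2 ratio after subtracting background and a smooth curve over intensity. Scanner files of the 40-week arrays were not analysed here, so the making of those columns was not checked.

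Signals were corrected with normexp (offset 50) and loess, controls excluded, and the brightest kept probe stood for a gene. Control and 4-week arrays were fitted with limma 3.58.1 in R 4.3.3. The 40-week comparisons used the deposited table, all 12 samples in 3 groups. Calls are Benjamini-Hochberg adjusted p under 0.05 over 20720 genes, limma's in every case. Probe names come from the files, other genes' through RefSeq tables. The fit was tested on simulated data. All 10 members were described at every probe. From the other lists, up to 4 called genes with the smallest p were named, or else the first 3 measured. Tnnc2, Mb, Myl1, Tnni3, Myh7, Myh8 and the ratios of Myf5 were added after their values were seen. Members and lists were chosen with earlier results of these data known. The number of arrays limits the precision.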

Additional observations from a re-analysis of the deposited data

Results flagged for a closer look

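For 3 values the array stood far from the other 3 arrays of its group by Dixon's gap test, among 24 checks of 8 members in 3 groups. Chance marks about 1 in 20 such groups. The deposited log2 ratio of Eno3 was 0.25 on 40-week replicate 1, above -0.11 to -0.06 on the others. That of Myh2 was 2.81 on the same array, below 3.20 to 3.28. The scanner log2 ratio of Tnnt3 was -0.81 on 4-week replicate 1, below 0.07 to 0.16.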

How the results depend on the processing

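The count of members called at 4 weeks, 1, was not stable. It was 0 with a normexp offset of 10, median centring, scaling to the same spread, either channel alone, the replicate block, without control replicates 3 and 4 and 4-week replicate 2, and with each array left out in turn (lowest 0, highest 0). It was 2 (Eno3 and Myh2) with no background correction, processed signals, the deposited values, the mean of probes, every probe on its own, and array weights. Eno3 was lower in each of these, by -1.54 to -0.97 outside Cy3 alone. Under median centring, scaling to the same spread, the replicate block and the omission of the 3 arrays, limma called 0 of all genes, against 2830, 3098, 3787 and 4562 at an unadjusted p under 0.05. Replicate numbers did not pair samples (correlations of same-numbered control and 4-week arrays 0.32, -0.48, 0.14 and -0.26), and the replicate block left 4 and 5 members called at 40 weeks.

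At 40 weeks against control, the 4 called members became 2 with the same spread and 2 with quantile normalisation, and 3 to 5 with an array left out. Against 4 weeks, 5 became 3 with the same spread, 2 with quantile normalisation, 2 without 40-week replicates 3 and 4, which an earlier look at these data set apart, and 3 to 5 with an array left out. The cause of these moves was not tested.

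Directions turned as follows. At 4 weeks, Myh1 was -0.12 without background correction, -0.16 with median centring, -0.19 with processed signals, -0.05 in deposited values and -0.03 as a mean of probes, and from -0.49 to 0.34 with an array left out. Acta1 was 0.03 with the same spread and 0.11 without the 3 arrays, and Tnnt3 -0.31 without these, -0.07 with array weights and from -0.01 to 0.57 with an array left out. In Cy3 alone, the values were 0.18 for Acta1, 0.25 for Ckm, 0.10 for Myh2, -0.22 for Tnnt3, -0.07 for Mylpf and -0.25 for Atp2a1. At 40 weeks against control, the same spread gave Acta1 0.25, Ckm 0.08, Myh1 0.63 and Mylpf -0.18, and quantile normalisation 0.06, 0.22, 0.42 and -0.24. With an array left out Myh1 ran from -0.40 to 0.02 and Mylpf from -0.01 to 0.22. Against 4 weeks, the same spread gave Acta1 0.49, Ckm 0.67, Myh1 0.68 and Myh2 0.11, and quantile normalisation gave 0.18, 0.30 and 0.39 for the first 3. With an array left out Myh1 ran from -0.53 to 0.52 and Mylpf from -0.46 to 0.04.

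In the means of the members by array, Cy5 alone moved control replicate 1 from -0.38 to -0.14 and 4-week replicate 4 from 0.53 to 0.87. The deposited values and the median over all probes moved each array by less than 1 SD of its group. Dim probes limit Myh4, Pvalb, Myh1, Myod1 and the coding probe of Myh2, whose signals lie near background.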
